A study of Mus musculus with 6 samples.

Results

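The p53 circuit was followed through 10 of its genes, Trp53, Mdm2, Mdm4, Cdkn1a, Ccng1, Phlda3, Zmat3, Trp53inp1, Sesn1 and Sesn2, in 6 RNA sequencing libraries of L929 cells, an established mouse fibroblast line. They were chosen by name, as p53 itself, its main inhibitors and well-known p53 target genes, and are 10 of the 54532 genes in the count table. All 10 had enough counts to be tested, among 13290 genes tested. Of the libraries, 3 came from control cells, and 3 came from cells given tumour necrosis factor alpha (TNF-α) at 10 ng/ml with actinomycin D at 1 µg/ml for 12 h. All 6 are labelled wild type, and the labels name only TNF-α in the titles of the treated libraries, whereas their treatment text, which is repeated unchanged on the control entries, gives both agents. No group received either agent alone, so effects of TNF-α and of actinomycin D cannot be told apart. Whether the libraries of a group stem from separate cultures is not in the labels, and p-values therefore reflect the spread of these 3 libraries a group, which may be technical.

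The protein p53 is a transcription factor that is held at a low level by MDM2, a ubiquitin ligase that marks it for degradation, and by MDM4, which binds p53 and masks its activating region. When cells are stressed p53 escapes this control and switches on genes for cell cycle arrest, DNA repair, metabolism and death, and Mdm2 is itself one of its targets, which closes a feedback loop. Actinomycin D binds DNA and blocks RNA synthesis, and with it TNF-α is a standard way to kill L929 cells. Transcript counts report RNA levels and hold no measurement of p53 protein.

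The p53 binding site in DNA is made of a pair of consensus units of 10 letters each, and the promoter sequences are shown because these units are the DNA element that links p53 to its targets. Promoter windows from RefSeq, build GRCm38.p6, were available for 8 of the 10 genes, in 11 windows, and those of Zmat3 and Trp53inp1 were not used here. The p53 consensus unit, which reads the same on both strands, was found in 5 of the 11 windows, against 2745 of 32851 windows of all genes (8.36%). A pair of units side by side, with at most 1 letter off the consensus, were found in 22 of all windows (0.067%) and in 2 of the members' windows, those of Ccng1 and Cdkn1a. Of the genes of those 22 windows 7 were tested, with 4 higher in treated libraries, Cdkn1a and Ccng1 among them, 2 lower and 1 not called. Genes with any unit were higher in 34.8% and lower in 40.1% of 770 tested, against 32.9% and 43.3% of 9471 tested genes with a window. A match describes letters and measures no binding. The sequences below run 5′ to 3′ on the strand of the gene, and capitals mark the matching unit or pair of units.
Cdkn1a, adjacent pair, chr17:29090913-29090962, plus strand: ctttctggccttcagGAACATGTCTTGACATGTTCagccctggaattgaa
Ccng1, adjacent pair, chr11:40755447-40755496, minus strand: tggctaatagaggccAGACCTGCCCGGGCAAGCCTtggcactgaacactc
Mdm2, single unit, chr10:117710920-117710959, minus strand: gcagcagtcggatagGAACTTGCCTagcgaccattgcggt
Trp53, single unit, chr11:69580269-69580308, plus strand: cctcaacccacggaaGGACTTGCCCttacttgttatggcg
Sesn1, single unit, chr10:41887251-41887290, plus strand: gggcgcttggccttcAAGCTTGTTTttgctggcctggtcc
The matching letters began 51 bases before an annotated start of Cdkn1a and 195 bases before that of Ccng1. Cdkn1a held a further single unit, 73 bases before the same start. Cdkn1a and Sesn1 have 2 windows each, and the matches shown come from 1 of them. The Sesn1 match lies within the annotated span of the gene. No unit was found in the windows of Mdm4, Phlda3 and Sesn2, which says only that the letters are not in those windows.

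The libraries held 16056207 to 18036322 counts each, with 19219 to 20116 genes detected in controls and 15705, 17688 and 18849 in treated libraries 1, 2 and 3. Treated library 3 was the treated library nearest to the controls on the first principal component, which held 86.8% of the variance. The factors that put the libraries on one scale (trimmed mean of M-values, TMM) lay at 1.341 to 1.526 in controls and 0.6402 to 0.7974 in treated libraries. Library size alone would therefore move the median log2 change of all genes by -1.04, and all CPM (counts scaled by library size and TMM factor) and changes below are on the TMM scale unless stated. Ribosomal protein genes took 7.22 to 8.48% of counts in controls and 17.7 to 22.2% in treated libraries. In bulk RNA, fewer cells and less RNA per cell cannot be told apart. Of 8 fibroblast markers, 7 were tested, and Thy1 was near 0 in these cells. The summed level of the fibroblast markers was 5830 to 7570 CPM in controls and 17300 to 20400 CPM in treated libraries, mostly from Vim, Col1a2, Col1a1 and Fn1, while Pdgfrb fell from 75.7 to 39.7 CPM. That of 5 macrophage markers was 5.44 to 7.41 and 36.4 to 41.2 CPM, mostly from Cd68 in treated libraries (1.85 and 25.7 CPM), with Ptprc and Adgre1 at or near 0, and its part in the results was not tested.

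Of the 10 genes, 4 were called higher in treated libraries and 6 lower (adjusted p under 0.05, edgeR quasi-likelihood test with Benjamini-Hochberg adjustment over all genes), against 34.6% higher and 40.2% lower among all tested genes. With 10 genes, shares of 40.0% and 60.0% were not read as a difference from that background. The libraries of the groups did not overlap for 9 of the 10 genes, 4 higher and 5 lower, where the same held for 35.9% and 42.0% of all tested genes. Cdkn1a, Trp53inp1, Ccng1 and Trp53 were the higher genes, and Phlda3, Sesn2, Sesn1, Mdm2, Mdm4 and Zmat3 the lower ones. The median log2 change of the 10 was -0.96, against -0.18 for all tested genes, and with an offset for gene length it was 0.04 against -0.25. Treated library 3 lay nearest to the controls for 6 of the 10 genes and treated library 1 for 4.

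**Figure D1:**
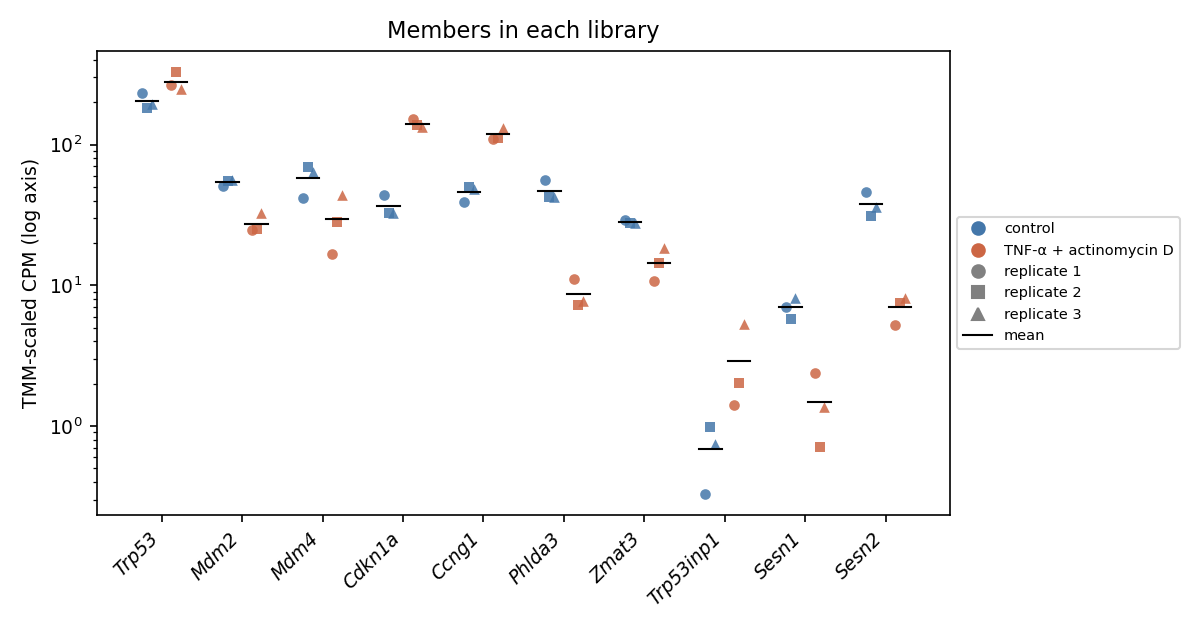
Level of each gene in each of the 6 libraries, as TMM-scaled CPM on a log axis, with controls and treated libraries as separate points. The groups separate for 9 of the 10 genes, while the Mdm4 values of treated library 3 (44.1 CPM) and control library 1 (41.6 CPM) overlap.

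How the calls read depends on the scale. With library size alone 1 of the 10 was called higher and 7 lower, and with the ribosomal protein genes held equal, or the mitochondrially encoded genes, 0 were called higher and 8 lower. The share of higher calls among all called genes was 46.3% on the TMM scale, 22.3% with library size alone, 2.18% with ribosomal protein genes held equal and 3.13% with mitochondrial genes held equal. In the same order, the median log2 change of all tested genes was -0.18, -1.21, -2.57 and -2.33. The directions given below are therefore relative to the other genes of these libraries and not to RNA per cell.

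**Figure D2:**
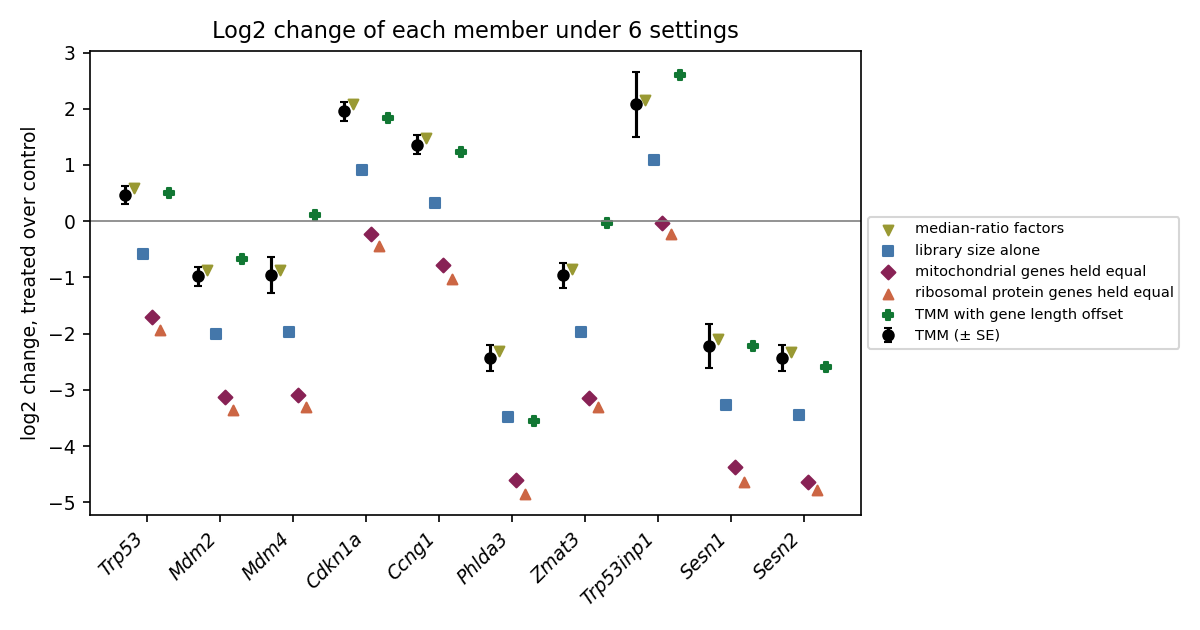
The log2 change of each gene, treated minus control, under 6 settings (scalings of the libraries, and a gene length offset), with the SE on the TMM value. Mdm2, Phlda3, Sesn1, Sesn2 and Zmat3 lie below 0 in all 6 settings and Mdm4 in all but the length offset (0.11), whereas Trp53 changes from 0.47 to -0.58 with library size alone and Cdkn1a from 1.96 to -0.43 with ribosomal protein genes held equal.

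Trp53, the gene of p53 on chromosome 11 (69580359 to 69591873, plus strand), measured 231.6, 182.1 and 193.2 CPM in controls and 263.0, 328.4 and 247.5 CPM in treated libraries. All treated values lay above all control values, with the closest pair 231.6 and 247.5 CPM. The log2 change was 0.47 ± 0.17 (SE, 1.38-fold, adjusted p = 0.0249), which places Trp53 at the 62.0th percentile of all tested genes. With library size alone Trp53 was called lower (-0.58, adjusted p = 0.00292). The call was lost without control library 2 (0.37, adjusted p = 0.113), without control library 3 (0.40, adjusted p = 0.129), without treated library 2 (0.27, adjusted p = 0.111), with no filter on low counts (0.31, adjusted p = 0.168) and with limma on log2(FPKM + 1) without a filter (0.53, adjusted p = 0.0542). A processed pseudogene, Trp53-ps, held 268 control and 130 treated counts.

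Mdm2, the ubiquitin ligase that keeps p53 low (chromosome 10, 117688875 to 117710758, minus strand), measured 50.8, 55.5 and 55.6 CPM in controls and 24.6, 24.9 and 32.4 CPM in treated libraries. The groups stood well apart, and Mdm2 was 1.97-fold lower (log2 change -0.98 ± 0.17 SE, adjusted p = 3.54e-04). This call and its direction held under all 22 alternatives tried. Mdm4, the partner that binds p53 without degrading it (chromosome 1, 132959484 to 133030561, minus strand), was lower on average, at 41.6, 69.4 and 63.4 CPM in controls and 16.8, 28.3 and 44.1 CPM in treated libraries. Its groups overlapped between control library 1 and treated library 3, the SD over treated libraries was 13.7 CPM, and the change was -0.96 ± 0.32 (SE, adjusted p = 0.0189). With upper-quartile scaling the adjusted p was 0.0585, and without control library 2, control library 3 or treated library 2 it was 0.0504, 0.0538 and 0.0768. On log2(FPKM + 1) without a filter it was 0.0813 with limma. With the gene length offset described under processing its change was 0.11.

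Cdkn1a encodes p21, the cyclin-dependent kinase inhibitor that arrests the cell cycle downstream of p53 (chromosome 17, 29090976 to 29100727, plus strand). It measured 43.6, 32.5 and 32.8 CPM in controls and 152.1, 137.0 and 133.7 CPM in treated libraries. The treated values lay close together and all above the controls. Its log2 change of 1.96 ± 0.17 (SE, 3.88-fold, adjusted p = 2.09e-06) was at the 87.0th percentile of all genes. The change was 0.92 with library size alone and still called, but -0.43 and -0.22 with ribosomal protein or mitochondrial genes held equal, neither of them called. Ccng1, which encodes cyclin G1, a p53 target that acts back on MDM2 (chromosome 11, 40748552 to 40755311, minus strand), measured 39.0, 50.1 and 48.5 CPM in controls. In treated libraries it measured 110.3, 111.7 and 131.8 CPM, with no overlap. It rose 2.57-fold (log2 change 1.36 ± 0.16 SE, adjusted p = 1.88e-05), yet was 0.33 with library size alone (adjusted p = 0.189) and -1.03 with ribosomal protein genes held equal.

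Phlda3, a p53 target that restrains AKT signalling (chromosome 1, 135766119 to 135769136, plus strand), had the lowest log2 change of the 10 on the TMM scale, with 56.3, 42.6 and 42.4 CPM in controls and 11.1, 7.25 and 7.71 CPM in treated libraries. All treated values lay below all control values. The change was -2.44 ± 0.23 (SE, 5.42-fold lower, adjusted p = 3.52e-06), near the lower end of all genes at the 12.0th percentile. Zmat3, an RNA-binding p53 target (chromosome 3, 32334792 to 32366014, minus strand), measured 29.2, 27.7 and 27.8 CPM in controls and 10.7, 14.4 and 18.3 CPM in treated libraries. The controls were tight and the treated values spread, with the highest in library 3, and the change was -0.96 ± 0.22 (SE, adjusted p = 0.00192). With the gene length offset, the Zmat3 change was -0.04 (adjusted p = 0.882). Trp53inp1, a p53 target linked to cell death and autophagy (chromosome 4, 11156431 to 11174379, plus strand), was measured on few counts, 8, 24 and 19 in controls and 16, 23 and 69 in treated libraries. On the CPM scale these were 0.331, 0.981 and 0.751 in controls and 1.41, 2.03 and 5.27 in treated libraries, with no overlap. The change was 2.08 ± 0.58 (SE, adjusted p = 0.00724), but without treated library 3 it was 1.26 (adjusted p = 0.0820), and with library size alone 1.09 (adjusted p = 0.182), and on log2(FPKM + 1) without a filter 0.38 (limma, adjusted p = 0.116).

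Sesn1 and Sesn2 encode sestrins, stress-induced proteins that hold back the growth kinase mTORC1. Sesn1 (chromosome 10, 41809935 to 41908424, plus strand) measured 6.997, 5.76 and 8.10 CPM in controls and 2.38, 0.707 and 1.37 CPM in treated libraries, the latter resting on 27, 8 and 18 counts. It was 4.66-fold lower with no overlap (log2 change -2.22 ± 0.39 SE, adjusted p = 3.65e-04). Sesn2 (chromosome 4, 132492032 to 132510501, minus strand) measured 45.6, 31.2 and 36.2 CPM in controls and 5.21, 7.51 and 8.17 CPM in treated libraries. It was 5.39-fold lower, also without overlap (log2 change -2.43 ± 0.24 SE, adjusted p = 4.89e-06). Phlda3, Sesn1 and Sesn2, like Mdm2, kept call and direction in all 22 alternatives. Sesn2 overlaps Gm12981, annotated on the same strand, which held 13 control and 14 treated counts, and no source used here says how reads of overlapping genes were assigned. On the opposite strand, Cdkn1a overlaps AC167363.2 (18 control and 86 treated counts) and Mdm4 overlaps Gm29257 (36 and 88), both far below the counts of the members.

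Ratios of 2 genes within a library do not depend on how libraries are scaled to each other. Per base of gene length, Mdm2 stood at 0.174, 0.242 and 0.229 of Trp53 in controls and at 0.0747, 0.0605 and 0.104 in treated libraries. The ratio was 2.74-fold lower with no overlap between groups. Cdkn1a stood at 0.214, 0.203 and 0.194 of Trp53 in controls and at 0.658, 0.475 and 0.615 in treated libraries, 2.84-fold higher and also without overlap. With 3 libraries against 3 the exact two-sided permutation test cannot give a p below 0.1, and it gave 0.1 for both (0.2 adjusted over 4 ratios). Mdm2 to Mdm4 was 3.56, 2.33 and 2.55 in controls and 4.27, 2.57 and 2.14 in treated libraries, with overlap (exact permutation p = 0.8, adjusted 0.9). Mdm2 and Mdm4 differ in length, at 5083 and 14798 bases, and the ratio does not take out the trend on length given below. With the gene length offset their log2 changes were -0.68 and 0.11. Sesn2 to Sesn1 was 7.45, 6.18 and 5.11 in controls and ranged from 2.48 to 11.5 in treated libraries (exact permutation p = 0.9, adjusted 0.9), with Sesn1 counts of 8 to 27 behind the treated values.

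**Figure D3:**
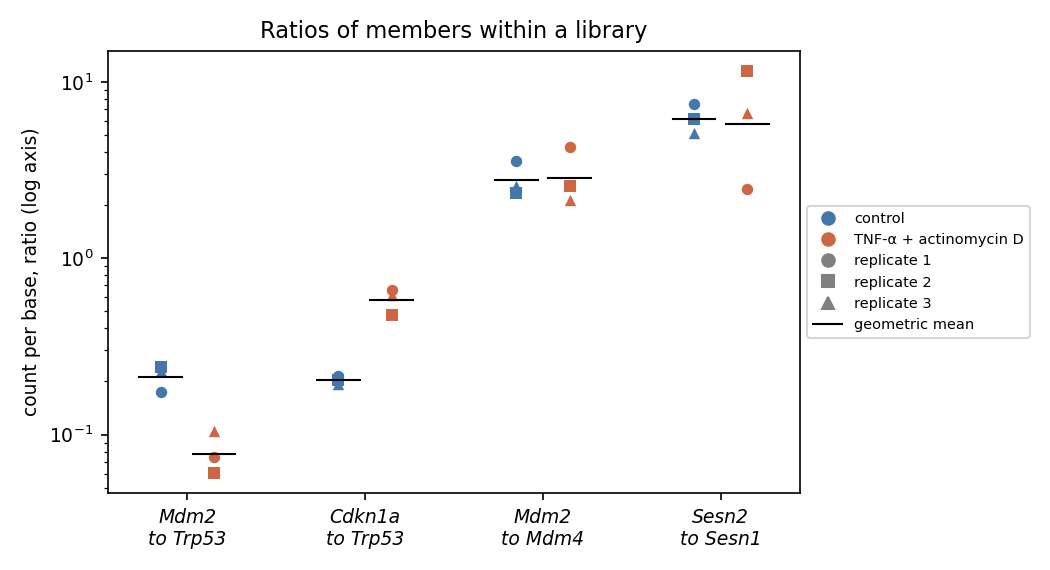
Ratio of counts per base of 4 pairs of genes in each library, on a log axis, with the geometric mean of each group as a line. The Mdm2 to Trp53 ratio is 2.74-fold lower and the Cdkn1a to Trp53 ratio 2.84-fold higher in treated libraries, while the other ratios overlap between groups.

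The deposited FPKM are levels scaled by gene length, but not by total counts alone. They stood at 0.635 to 0.719 times a scaling by total counts in controls and 1.22 to 1.64 times in treated libraries. Changes in FPKM between groups are therefore not changes per library depth. In FPKM, Trp53 was the most abundant of the 10 in both groups, at 48.2 ± 6.1 (SD, n = 3) in controls and 70.5 ± 12.1 in treated libraries. Phlda3 came next in controls at 29.1 ± 4.9 FPKM and stood at 5.70 ± 1.56 in treated libraries. Cdkn1a and Ccng1 stood at 9.85 ± 1.70 and 12.6 ± 1.67 FPKM in controls and came next to Trp53 in treated libraries at 40.5 ± 4.22 and 34.1 ± 2.14. Neighbours in the control order that did not differ beyond their spread were Ccng1 and Sesn2, Sesn2 and Mdm2, and Mdm2 and Cdkn1a. Trp53inp1 was the lowest in controls, at 0.102 ± 0.049 FPKM, and in treated libraries Sesn1 (0.383 ± 0.227) and Trp53inp1 (0.449 ± 0.302) were lowest and overlapped. The other overlapping neighbours in the treated order were Phlda3 and Mdm2, Sesn2 and Mdm4, and Mdm4 and Zmat3.

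Gene length moved with the change across all genes, from a median log2 change of 1.78 in the shortest length bin to -1.27 in the longest. Within its own length bin Trp53inp1 was at the 97.0th percentile, Cdkn1a at the 90.8th and Ccng1 at the 81.4th, against 6.0 for Phlda3, 12.4 for Sesn2 and 14.4 for Sesn1. Mdm4, the longest of the 10 at 14798 bases, was at the 58.7th percentile of its bin and Mdm2 at the 42.1st. With the trend on length taken out, 4 of the 10 members were called higher and 4 lower. Of all 13290 tested genes 3842 were then called higher and 5246 lower, and the member counts were not read as a difference from these.

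The genes most like Trp53 in pattern over the 6 libraries were Thap4 (Pearson r = 0.998), Plvap (0.995) and Pkmyt1 (0.98998), among 9154 genes compared. Those most like Mdm2 and Cdkn1a had r over 0.999, Xrn2, Nfxl1 and Prc1 for Mdm2 and Klc4, Sirt2 and Tmed4 for Cdkn1a. Over 0.99 were 353 genes for Mdm2, 762 for Cdkn1a and 2 for Trp53. Since the libraries fall into 2 groups, the likenesses of Mdm2 and Cdkn1a follow the difference between the groups. No likeness carries a p.

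Of 22 tested regulators of p53, 2 were higher and 16 lower in treated libraries, where 34.6% and 40.2% of all tested genes were, and the median log2 change was -1.53, against -0.18 for all genes. The histone acetyltransferase gene Ep300 fell from 46.1 to 1.93 CPM (log2 change -4.55 ± 0.56) and the deubiquitinase gene Usp10 from 93.8 to 4.37 CPM (-4.42 ± 0.19). Ppm1d, the phosphatase that turns p53 off, fell from 10.4 to 0.961 CPM (-3.43 ± 0.35). Cop1, a ligase of p53, rose from 22.04 to 31.98 CPM (0.54 ± 0.17, adjusted p = 0.0157), although with library size alone Cop1 was -0.50. The Cop1 call was also lost with no filter (adjusted p = 0.158), without control library 1, 2 or 3 (0.0569, 0.0552 and 0.0755 as adjusted p) and without treated library 2 (adjusted p = 0.0719). Atm, the kinase that signals DNA breaks to p53, was -1.03 ± 0.39 (adjusted p = 0.0338), a call lost in 12 of 22 alternatives. Cdkn2a had 0 counts in all 6 libraries, which does not tell an unexpressed gene from one missed in counting. All 7 ribosomal proteins that bind MDM2 were higher (median 2.17), with Rpl5 at 985.5 and 3238 CPM (1.72 ± 0.19) and Rpl11 at 719.4 and 3225 CPM (2.17 ± 0.23). With ribosomal protein genes held equal 0 of the 7 were higher and 4 lower (median -0.27, against -2.57 for all genes). These 7 are themselves among the 80 genes held equal, so that setting places them near 0 by construction. With mitochondrially encoded genes held equal 0 were called higher and 0 lower (median 0.002, against -2.33 for all genes).

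Of 49 other p53 targets tested, 22 were higher (44.9%) and 19 lower (38.8%), against 34.6% and 40.2% of all tested genes, with a median log2 change of 0.54 against -0.18. The medians of the death, arrest and signalling, and repair and metabolism lists were 0.54, 0.63 and 0.13. With the gene length offset they were 0.13, -0.04 and 0.3, against -0.25 for all genes. With library size alone they were -0.51, -0.41 and -0.88, against -1.21. On that scale 3, 3 and 5 genes were called higher and 6, 7 and 11 lower, beside 2276 higher and 7924 lower of 13290 genes. Among 13 death genes 6 were higher and 5 lower: Bax, the pore-forming killer protein, rose from 84.4 to 332.4 CPM (1.98 ± 0.23), Bbc3, which encodes PUMA, from 9.92 to 18.97 (0.93 ± 0.21), and Casp1 and Siva1 by 2.17 ± 0.19 and 2.42 ± 0.25 on the log2 scale. Bid fell from 99.9 to 5.22 CPM (-4.26 ± 0.21) and Apaf1 from 32.7 to 3.73 CPM (-3.13 ± 0.21). Of the arrest and signalling genes Btg2 had the largest rise, from 2.41 to 63.4 CPM (4.72 ± 0.26), and Gdf15 rose from 47.9 to 202.1 CPM (2.08 ± 0.19), while Gtse1 fell from 46.9 to 5.82 CPM (-3.01 ± 0.20). Of the repair and metabolism genes Ak1 and Gpx1 rose (3.03 ± 0.18 and 2.88 ± 0.22), Ddb2 rose on low counts from 2.19 to 6.40 CPM (1.55 ± 0.34), and Tigar and Polh fell (-3.45 ± 0.28 and -3.38 ± 0.21). Fas, with 14 control and 25 treated counts, was not tested, and Pmaip1, which encodes NOXA, had 0 counts in every library. Bbc3 was at -0.10 with library size alone and at 0.13 with the gene length offset (adjusted p = 0.597), and with ribosomal protein genes held equal Bax, Bbc3, Casp1, Siva1, Ddb2 and Gdf15 were all below 0, at -0.48, -1.44, -0.23, -0.02, -0.86 and -0.32. The median of all genes was -2.57 with ribosomal protein genes held equal.

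Beside the same shares of all genes, 40.2% lower and 34.6% higher, 13 of 16 genes that the p21 and DREAM axis represses were lower and 2 higher, Ccnb2 (1.59 ± 0.16) and Birc5 (0.97 ± 0.18), with Plk1 at -5.72 ± 0.28 and Ccna2 at -3.66 ± 0.24. Birc5 was at -0.09 with library size alone, and with ribosomal protein genes held equal Birc5 and Ccnb2 were at -1.47 and -0.84. Of 7 relatives of the members that were tested, 6 were higher, among them Phlda1, a relative of Phlda3, at 3.18 ± 0.20 and Trp53inp2 at 2.501 ± 0.27. With ribosomal protein genes held equal 1 of the 7 was higher and 3 lower, beside 244 higher and 10954 lower of 13290 genes.

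**Figure D4:**
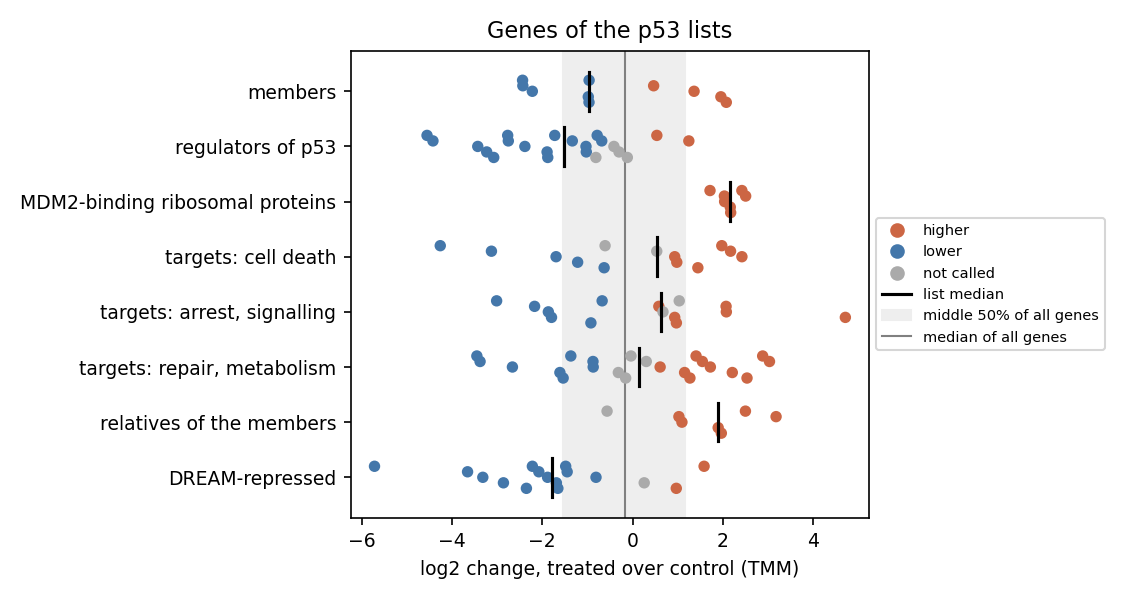
Log2 change of the tested genes of each list, with the list median as a black line, the middle 50% of all tested genes as a grey band and their median as a grey line; colours mark the edgeR calls. On the TMM scale ribosomal proteins that bind MDM2 and the relatives of the members lie to the right of the all-gene median of -0.18, and regulators of p53 and DREAM-repressed genes to the left. With ribosomal protein genes held equal, the all-gene median was -2.57, and the medians of those ribosomal proteins and relatives were -0.27 and -0.51. The ribosomal proteins are themselves among the genes held equal.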

How the data were processed

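RNA of 6 L929 libraries was sequenced. The deposited table gives raw counts per gene, and FPKM, beside a deposited gene length. Between libraries the FPKM do not follow total counts. Per the submitters' processing notes, GRCm38 and mm10 are the builds and DESeq2 1.24.0, HISAT2 2.1.0 and RSEM 1.3.1 the tools, listed without role or order. Strand use and the handling of reads with several matches are not given in the sources used here.

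Counts were taken from all 6 libraries (16056207 to 18036322 counts each) and tested with edgeR 4.0.16 quasi-likelihood (R 4.3.3, TMM factors, filterByExpr, robust), treated against control, with Benjamini-Hochberg adjustment over 13290 genes and a threshold of 0.05. Alternatives, with limma 3.58.1 and DESeq2 1.42.0 among them, varied scaling, filter, test, unit, replicate block and libraries. The gene length offset removes a lowess trend (span 0.3) of the log2 change on log2 length. Ratios used counts plus 0.5 per base, with an exact permutation test. The edgeR step was tested on simulated data. It recovered 53 of 99 genes given a change of 1 and 94 of 100 given a change of 2. Of 158 calls there, 11 were false. The genes given a change were few among the 13014 simulated, whereas 4604 genes were called higher and 5337 lower in these data. The recovery and false calls therefore do not carry over to so broad a change. Promoter windows of 300 bases (250 before to 50 after the start) came from RefSeq, and Python 3.11.15 searched them. The members and gene lists were chosen with earlier results of these data known. The text names all 10 members and, for every list, at most 2 genes with the highest and 2 with the lowest log2 change among those called at a mean of at least 1 CPM, plus Bbc3, Pmaip1, Bax, Fas, Btg2, Gdf15, Ppm1d, Ddb2, Atm, Cdkn2a, Rpl5 and Rpl11, and the 3 genes most like Trp53, Mdm2 and Cdkn1a over genes with a mean of at least 5 CPM. Marker genes are named after their values were seen, and 1 gene that the rule names is not reported here.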

Additional observations from a re-analysis of the deposited data

How the results depend on the processing

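Of the 4 members called higher, Trp53 and Ccng1 were called lower under another scaling, and Cdkn1a and Trp53inp1 lost their call with values below 0. With library size alone, ribosomal protein genes held equal and mitochondrially encoded genes held equal, respectively, 1, 0 and 0 of the 10 members were called higher, and 2276, 244 and 334 of all genes were called higher. Of all genes 10954 and 10333 were called lower with ribosomal protein or mitochondrial genes held equal. On FPKM + 1 without a filter, 2 members were called higher, beside 4720 of 24708 genes. With library size alone, Trp53 was -0.58, Cop1 -0.50, Bbc3 -0.10 and Birc5 -0.091. With ribosomal protein genes held equal, Trp53 was -1.94, Cdkn1a -0.43, Ccng1 -1.03, Trp53inp1 -0.22, Bax -0.48, Bbc3 -1.44, Birc5 -1.47, Casp1 -0.23, Ccnb2 -0.84, Cop1 -1.84, Ddb2 -0.86, Gdf15 -0.32, Rpl11 -0.27, Rpl5 -0.72 and Siva1 -0.016. Rpl11 and Rpl5 are themselves among the genes held equal there. With mitochondrial genes held equal, Trp53 was -1.70, Cdkn1a -0.22, Ccng1 -0.77, Trp53inp1 -0.031, Bax -0.18, Bbc3 -1.25, Birc5 -1.19, Ccnb2 -0.57, Cop1 -1.61, Ddb2 -0.56, Gdf15 -0.10 and Rpl5 -0.43. Which scale holds per cell was not tested.

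With the gene length offset the median of the members minus that of all genes was 0.28 and Mdm4 0.11, and with the replicate block and that offset 0.26 and 0.04. The replicate block alone called 4 members higher and 6 lower, beside 4450 higher and 5411 lower of 13290 genes. It changed no call of a member or named gene. Libraries of the same number correlated at 0.22, -0.14 and 0.03, and those of different numbers at -0.38 to 0.38. With so few libraries a group, these values do not settle whether the numbers pair them. Leaving out 1 library gave 3 to 4 members higher and 5 to 6 lower, beside 4125 to 4564 higher and 4928 to 5737 lower of 13622 to 13803 genes. The treated minus control difference in the log2 ratio of Mdm2 to Mdm4 then ran from -0.24 to 0.26 and that of Sesn2 to Sesn1 from -0.60 to 0.51. The causes were not tested. Trp53inp1 and Sesn1 rest on the fewest counts of the members.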
